A study of Homo sapiens with 6 samples.

Results

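The genes described here are 40 genes of the hypoxia response and of glycolysis, taken by symbol from the 56638 gene symbols counted in HCT116 cells, an established human colorectal cancer line. They comprise 19 glycolytic enzymes and their regulators, 3 transporters of glucose and lactate, 15 hypoxia targets outside glycolysis and 3 subunits of the hypoxia-inducible factor HIF. All 40 symbols were listed in every library, and 39 passed the filter on low counts that preceded the test. CA9, a carbonic anhydrase and a common marker of hypoxia, did not pass: it had 0, 1 and 1 reads in the controls and 0, 0 and 1 reads in the libraries labelled knockout, at or under the floor of 3 reads in each library, and no fold is given for it.

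The study compared 3 control libraries with 3 libraries labelled ZFP90 knockout, for which guide RNAs were directed at exon 3 of ZFP90, a zinc-finger gene of the KRAB family. Both groups were HCT116 at passage 16 to 19, grown in RPMI-1640 with 10% serum at 37 °C and 5% CO2, and no low-oxygen treatment is named for either. The labels do not say whether the knockout is 1 clone or a pool, nor whether the replicates were separate cultures, so the tests below speak to variation from library to library, possibly technical, rather than between cultures. Values are read counts per gene, given as CPM (counts scaled to a common library size, after TMM normalisation), and as RPKM (the same per kilobase of exon) where the levels of different genes are set side by side.

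HIF is a pair of proteins, an alpha subunit such as HIF1A or EPAS1 and the constant partner ARNT. While oxygen is present, prolyl hydroxylases of the EGLN family mark the alpha subunit for destruction through VHL. When oxygen is low the alpha subunit persists, joins ARNT and binds DNA at the letters ACGTG or GCGTG. Its targets include glucose transporters, most glycolytic enzymes, the lactate exporter SLC16A3, the angiogenic factors VEGFA and ADM, collagen-modifying hydroxylases, and EGLN genes themselves. Colorectal cancer cells in culture ferment much of their glucose to lactate even with oxygen at hand, so glycolytic RNAs are among their most abundant.

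The 2 HIF core motifs, ACGTG and GCGTG, were searched on both strands from 250 bases before to 50 bases after the RefSeq start of each gene (GRCh38.p14). CACGTG holds ACGTG on both strands and counts on each. Of the 40 genes 36 had a promoter in the table, and 26 of these 36 (72.2%) held a match. Among promoters of all genes tested the share was 62.7%, and among all 27305 promoters of this length it was 48.4%. The median GC content was 69.7% for these genes, 65.3% for genes tested and 58.3% for all promoters. The stretches below are printed from 5′ to 3′ on the strand of the gene, with the motif letters, or their reverse complement CACGT or CACGC, in capitals. ADM, PLOD2, ENO2, KDM3A and P4HA1 are shown because they are, of the genes with a match before the start, the 5 whose RNA changed most.
ADM, chr11:10304960-10304988, plus strand: gagcaggagcgcGCGTGgctgaggaaaga
PLOD2, chr3:146161301-146161422, minus strand: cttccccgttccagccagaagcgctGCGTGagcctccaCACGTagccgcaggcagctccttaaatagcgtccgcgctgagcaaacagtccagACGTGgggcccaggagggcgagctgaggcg
ENO2, chr12:6914450-6914478, plus strand: acccgcgctcgtACGTGcgcctccgccgg
KDM3A, chr2:86441333-86441361, plus strand: ccgggaggctgtGCGTGtcttgtgagagc
P4HA1, chr10:73096936-73096964, minus strand: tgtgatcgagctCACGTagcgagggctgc

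BNIP3 and PGK1 are shown for contrast, with 6 and 3 matches before the start and RNA that was not called.
BNIP3, chr10:131981998-131982091, minus strand: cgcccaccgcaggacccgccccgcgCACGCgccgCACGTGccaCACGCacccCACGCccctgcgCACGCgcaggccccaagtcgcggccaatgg
PGK1, chrX:78104012-78104094, plus strand: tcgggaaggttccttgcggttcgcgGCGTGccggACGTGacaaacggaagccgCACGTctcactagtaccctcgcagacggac

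By call, 4 of 4 promoters of genes that rose held a match, 9 of 12 of genes that fell and 12 of 19 of genes not called. The highest number of matches in a promoter was 1 among genes that rose, 3 among genes that fell and 6 among genes not called. SLC2A1, the gene with the largest change, had its match after the start, with its first letter at base 26, and the window of SLC16A3 held none. A match describes letters in this window and is not a measured site.

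ZFP90 RNA, the targeted transcript, rose in the knockout-labelled libraries instead of falling. It stood at 47.5, 47.4 and 43.1 CPM in the controls and at 86.9, 80.5 and 89.8 CPM in the others (log2 fold change 0.90, SE 0.066; edgeR adjusted p = 5.1e-05). Counts per gene carry no information on the reading frame, so groups are named below as labelled. Libraries held 13424356 to 17012910 reads in genes, at which 3 reads equal 0.176 to 0.223 CPM, and this floor covers counting error only. The 13 epithelial markers summed to 3126 to 3199 CPM in the controls and 3046 to 3185 CPM in the libraries labelled knockout. KRT8 was the largest part, at means of 1318 and 1394 CPM. CDX1 was at 0, and VIL1, LGALS4 and GPA33, at 6 reads or fewer in each library, were also not tested. Of the 9 tested markers 1 was called. None of 10 leukocyte markers was tested, and they summed to 0.922 to 1.79 CPM with CD3E, CD3D and MS4A1 at 0. The 8 fibroblast markers summed to 75.6 to 96.2 and 76.1 to 97.5 CPM, with 0 of 5 tested markers called. Most of this sum was COL1A1, at 66.6 to 84.7 CPM in the controls and 66.8 to 82.9 CPM in the libraries labelled knockout. Endothelial markers summed to 2.35 to 3.21 and 3.08 to 3.73 CPM, with 0 of 3 called and PECAM1 at 0. At an unadjusted edgeR p under 0.05 the numbers were 0 fibroblast markers and 1 endothelial marker, and DESeq2 and limma-voom called 0 of either. Mitochondrial genes took 8.05%, 4.77% and 8.08% of gene reads in controls 1, 2 and 3, and 9.61% to 10.1% in the libraries labelled knockout. In control replicate 2 their median was 53.3% of the level in controls 1 and 3. The part of mitochondrial reads in the results was not tested. In control replicate 2, genes on chromosomes 6, 7, 8, 9 and X stood at medians of 53.1% to 87.4% of their level in controls 1 and 3. This is where VEGFA, NDRG1, BNIP3L, CA9 and PGK1 lie, and the tested ones are also given without it.

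Of the 39 genes tested, 5 rose and 14 fell in the libraries labelled knockout, and 20 were not called (edgeR quasi-likelihood test, Benjamini-Hochberg adjusted p under 0.05 over all genes). The called share was 48.7%, beside 21.1% of all 16369 genes tested. Of all genes tested 9.73% rose and 11.4% fell, whereas 35.9% of the members fell. The median log2 fold change was -0.11 over the 39 genes and 0.01 over all genes. The 3 libraries of each group did not overlap in 27 of the 39 genes, with the libraries labelled knockout above in 7 and below in 20. Over all genes tested 41.2% did not overlap, 20.9% above and 20.3% below. The members were listed for their shared biology, and in bulk RNA fewer cells carrying a transcript and less transcript per cell cannot be told apart.

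**Figure D1:**
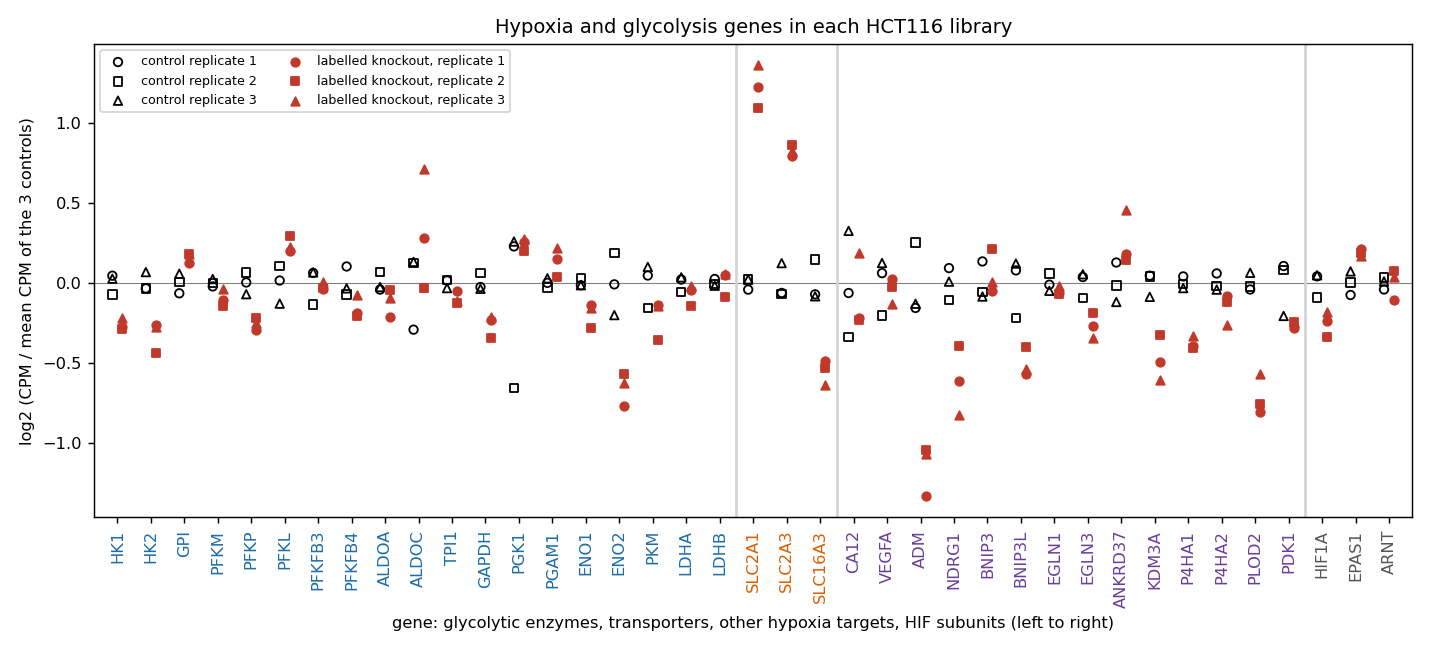
Level of each tested gene in each library, as log2 of its CPM over the mean of the 3 controls; open black symbols are controls, filled red symbols are libraries labelled knockout, and the marker shape gives the replicate number. SLC2A1 and SLC2A3 lie highest and ADM lowest in the libraries labelled knockout, and control replicate 2 lies apart from the other controls in PGK1.

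The HIF subunits moved in different directions and by little. HIF1A, the alpha subunit present in most cells, stood at 188, 172 and 189 CPM in the controls and at 155, 145 and 161 CPM in the libraries labelled knockout. Every library labelled knockout lay below every control, and HIF1A fell by 0.25 on the log2 scale (SE 0.060; edgeR adjusted p = 0.0186). EPAS1, which encodes the alpha subunit HIF-2α, stood at 104, 109.6 and 115 CPM against 127, 124 and 123 CPM. Its groups also lay apart, and EPAS1 rose by 0.19 (SE 0.053; edgeR adjusted p = 0.0359). ARNT was level, with 55.7, 58.6 and 57.6 CPM against 53.2, 60.4 and 58.8 CPM, overlapping groups and a log2 fold change of 0.00 (SE 0.064; edgeR adjusted p = 0.977). Per exon length HIF1A was the most abundant of the 3 in both groups, at 35.5 ± 1.90 and 29.8 ± 1.59 RPKM (SD, n = 3), beside 15 ± 0.765 and 17.1 ± 0.260 RPKM for EPAS1 and 8.79 ± 0.227 and 8.82 ± 0.584 RPKM for ARNT. The HIF1A call needed each of 4 libraries: leaving out control 1 or 3, or replicate 1 or 2 labelled knockout, gave edgeR adjusted p-values of 0.0585 to 0.0647. The EPAS1 call was lost on omitting control 1 or any library labelled knockout (adjusted p up to 0.137), and with 2 other scalings, DESeq2 and the replicate block (adjusted p from 0.0528 to 0.243).

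Both glucose importers rose and the lactate exporter fell. SLC2A1 encodes GLUT1, the glucose transporter of most proliferating cells, and is found at 42925375 to 42959176 of chromosome 1, minus strand (GRCh38, GENCODE 29). It stood at 129, 135 and 135 CPM in the controls and at 311, 283 and 341 CPM in the libraries labelled knockout. The groups are far apart: the lowest library labelled knockout exceeds every control, and the mean went from 133 ± 3.34 to 312 ± 28.7 CPM (SD, n = 3). The log2 fold change of 1.23 (SE 0.069; edgeR adjusted p = 1.44e-05), or 2.34-fold, was the largest among the 39 genes in either direction. SLC2A3, encoding the high-affinity transporter GLUT3, is at 7919230 to 7936275 of chromosome 12, minus strand. It stood at 10.4, 10.3 and 11.8 CPM against 18.8, 19.6 and 19.2 CPM. All 3 libraries labelled knockout were above the controls with little spread, and SLC2A3 rose by 0.83 (SE 0.089; edgeR adjusted p = 0.000434), or 1.78-fold. Per exon length it stayed far below SLC2A1, at 3.12 ± 0.0697 RPKM beside 66.0 ± 6.08 RPKM in the libraries labelled knockout. SLC16A3 encodes MCT4, the monocarboxylate transporter through which glycolytic cells release lactate, on chromosome 17 from 82228397 to 82261129. It stood at 216, 251.3 and 214 CPM in the controls and at 162, 157 and 146 CPM in the others. No libraries overlapped, and SLC16A3 fell by 0.55 (SE 0.072; edgeR adjusted p = 0.0012). These 3 calls held under every alternative run.

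**Figure D2:**
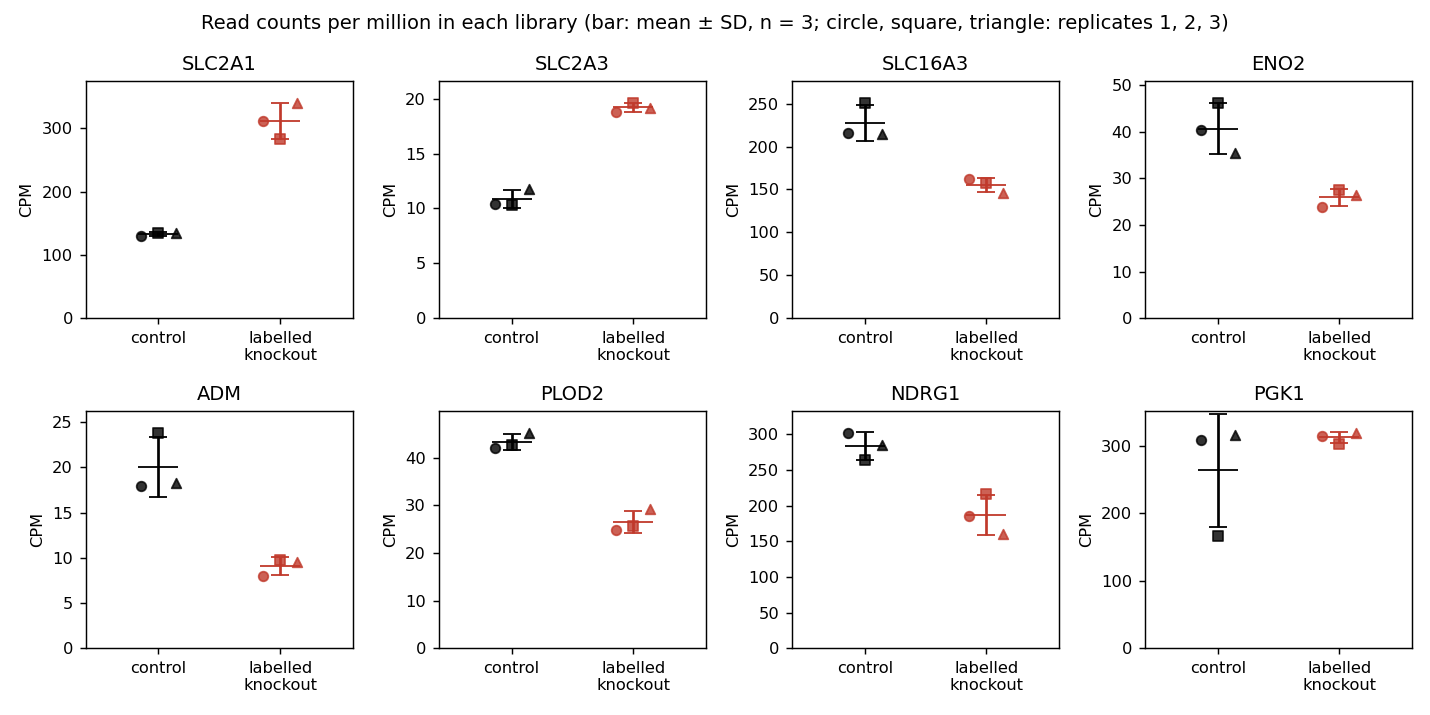
CPM of 8 genes in each library, with the mean and SD of each group (n = 3) as bars and every vertical axis starting at 0. SLC2A1 and SLC2A3 are above, and SLC16A3, ENO2, ADM, PLOD2 and NDRG1 below, all controls in the 3 libraries labelled knockout, whereas PGK1 overlaps, with control replicate 2 at 167 CPM.

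Of the 19 glycolytic enzymes and regulators, 6 fell (HK1, HK2, PFKP, GAPDH, ENO1 and ENO2), 2 rose (GPI and PFKL) and 11 were not called. The median log2 fold change of the 19 was -0.10. Of all genes tested 11.4% fell and 9.73% rose. At the entry step, hexokinases trap glucose by phosphorylation. HK2, the isoform that many tumours carry, stood at 108, 108 and 116 CPM in the controls and 92.2, 81.6 and 91.2 CPM in the libraries labelled knockout. HK1, the more widespread isoform, stood at 66.5, 61.3 and 65.6 CPM against 53.2, 52.7 and 55.3 CPM. For both genes all 3 libraries labelled knockout were below all controls: HK2 fell by 0.32 (SE 0.063; edgeR adjusted p = 0.00808) and HK1 fell by 0.26 (SE 0.057; edgeR adjusted p = 0.0131). GPI, which isomerises glucose phosphate, stood at 136, 143 and 148 CPM against 155, 161 and 162 CPM. It rose by 0.16 (SE 0.050; edgeR adjusted p = 0.0488), the call nearest to the threshold among these genes.

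The committed step is run by phosphofructokinase, built from the products of PFKM, PFKP and PFKL, and these 3 genes did not move together. PFKP, the platelet form and the most abundant of them per exon length, stood at 183, 191 and 174 CPM in the controls and 149, 157 and 153 CPM in the others, and fell by 0.25 (SE 0.052; edgeR adjusted p = 0.00955). PFKL, the liver form, stood at 88.0, 93.7 and 79.6 CPM against 99.9, 106 and 102 CPM, and rose by 0.24 (SE 0.067; edgeR adjusted p = 0.0364). The groups lay apart in both, in opposite directions. PFKM, the muscle form, had a log2 fold change of -0.10 (SE 0.049; edgeR adjusted p = 0.198). Of the regulators that set fructose bisphosphate levels, PFKFB3 had a log2 fold change of -0.02 and PFKFB4 of -0.16, and neither was called.

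In the lower part of the pathway GAPDH, ENO1 and ENO2 fell. GAPDH, which oxidises glyceraldehyde phosphate and often serves as a loading control, stood at 935, 993 and 927 CPM in the controls and 811, 750.4 and 822 CPM in the libraries labelled knockout. It fell by 0.26 (SE 0.057; edgeR adjusted p = 0.0134), from 319 ± 12.1 to 266 ± 12.9 RPKM (SD, n = 3), the highest level per exon length among the members. ENO1, the widespread enolase, stood at 1226, 1265 and 1226 CPM against 1127, 1019 and 1109.9 CPM and fell by 0.19 (SE 0.057; edgeR adjusted p = 0.0441). ENO2, the enolase known from neurons and a HIF target, made the largest change of any enzyme. It stood at 40.4, 46.3 and 35.4 CPM in the controls and 23.9, 27.4 and 26.4 CPM in the libraries labelled knockout. ENO2 fell by 0.65 (SE 0.10; edgeR adjusted p = 0.00322), or 36.4% by the same fit. The highest library labelled knockout was below the lowest control for GAPDH, ENO1 and ENO2. The ENO2 gene (chromosome 12, 6913745 to 6923698, plus strand) lies near TPI1, at 6867119 to 6870948. GAPDH is farther away on the same chromosome, at 6533927 to 6538374.

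The other enzymes were not called, with log2 fold changes from -0.21 for PKM to 0.36 for ALDOC and edgeR adjusted p from 0.117 to 0.933. PKM, the pyruvate kinase of most tissues, stood at 1717, 1492 and 1782 CPM against 1508, 1298 and 1505 CPM, and its groups overlapped through control replicate 2. The lactate dehydrogenases LDHA and LDHB had log2 fold changes of -0.07 and 0.01, the triose enzyme TPI1 -0.10, the aldolase ALDOA -0.11 and the mutase PGAM1 0.14. ALDOC varied most among the libraries labelled knockout, with 11, 8.87 and 14.9 CPM against 7.41, 9.87 and 9.93 CPM. PGK1, phosphoglycerate kinase on the X chromosome, stood at 309, 167 and 315 CPM against 315, 303 and 319 CPM. Its log2 fold change of 0.24 (SE 0.20; edgeR adjusted p = 0.417) came to 0.00 without control replicate 2 (edgeR adjusted p = 0.974). Reads at TPI1 copies made up 36.4% to 38.0% of the reads summed over gene and copies, and those at PGAM1 copies 3.46% to 8.30%, so these levels are uncertain.

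Of the 8 enzyme calls, HK2 and ENO2 held under every alternative run and GAPDH under all but a stricter threshold. GPI was not called without any 1 library other than control replicate 2, nor with 3 other scalings, DESeq2 or no filter (edgeR or DESeq2 adjusted p from 0.0519 to 0.347). PFKL was lost with 2 other scalings, DESeq2 and the same 5 omissions (adjusted p from 0.061 to 0.181), and ENO1 with the replicate block and those omissions (edgeR adjusted p from 0.0507 to 0.121). HK1 was lost without control replicate 1 or replicate 1 labelled knockout (edgeR adjusted p = 0.0536 and 0.0575) and PFKP without replicate 1 labelled knockout (edgeR adjusted p = 0.0526). PKM was called without control replicate 2 (edgeR adjusted p = 0.001985), with the replicate block (0.0216), with library size only (0.0415) and with no filter (0.00222), and PGK1 with no filter (0.00745).

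Of the 14 tested hypoxia targets outside glycolysis, 6 fell (ADM, PLOD2, NDRG1, BNIP3L, KDM3A and P4HA1), none rose and 8 were not called. Of all genes tested 11.4% fell and 9.73% rose. At an unadjusted p under 0.05 edgeR had 0 of the 14 higher, and DESeq2 and limma-voom called 0 higher. The median log2 fold change of the 14 was -0.26, and 12 of 14 values were below 0, beside 7963 of 16369 over all genes tested. ADM encodes adrenomedullin, a secreted peptide that dilates vessels, at 10304680 to 10307397 of chromosome 11, plus strand. It stood at 18.0, 23.8 and 18.3 CPM in the controls and 7.97, 9.72 and 9.56 CPM in the libraries labelled knockout. By the edgeR fit ADM fell by 54.8%. Every library labelled knockout was well below the lowest control, and the log2 fold change was -1.14 (SE 0.14; edgeR adjusted p = 0.000786). Its promoter stretch, printed above, holds a single GCGTG, 101 bases before the start. VEGFA, the other angiogenic factor in the list, stood at 333, 277 and 348 CPM against 325, 313 and 291 CPM. Its groups overlapped, with a log2 fold change of -0.04 (SE 0.085; edgeR adjusted p = 0.761), and of -0.13 without control replicate 2 (edgeR adjusted p = 0.0752).

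Enzymes that modify collagen lysine and proline fell in part. PLOD2, a lysyl hydroxylase that prepares collagen for cross-linking, is at 146069440 to 146163653 of chromosome 3, minus strand. It stood at 42.1, 42.6 and 45.2 CPM in the controls and 24.8, 25.6 and 29.2 CPM in the others, with no overlap, and fell by 0.71 (SE 0.079; edgeR adjusted p = 0.000513). P4HA1, a catalytic subunit of collagen prolyl hydroxylase, stood at 47.9, 46.3 and 45.5 CPM against 35.5, 35.1 and 37.0 CPM. The spread within each group was small beside the difference, and P4HA1 fell by 0.38 (SE 0.058; edgeR adjusted p = 0.00277). P4HA2, the alternative subunit, had a log2 fold change of -0.15 (SE 0.068; edgeR adjusted p = 0.144).

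NDRG1, a stress-response gene linked to differentiation in the colon, was the most abundant per exon length of the genes in this group that fell. It stood at 302, 263 and 285 CPM in the controls and 186, 216 and 160.4 CPM in the libraries labelled knockout, and fell by 0.60 (SE 0.10; edgeR adjusted p = 0.0041). Its groups lay apart although the libraries labelled knockout differed among themselves. BNIP3L, a mitophagy receptor also called NIX, stood at 83.9, 68.2 and 86.5 CPM against 53.6, 60.4 and 54.9 CPM and fell by 0.50 (SE 0.093; edgeR adjusted p = 0.00688). Both genes lie on chromosome 8, where control replicate 2 was low, and without it NDRG1 fell by 0.65 and BNIP3L by 0.60 (edgeR adjusted p = 5.35e-06 and 6.43e-07). BNIP3, the related receptor, stood at 15.6, 13.6 and 13.4 CPM against 13.7, 16.4 and 14.2 CPM, with a log2 fold change of 0.05 (SE 0.11; edgeR adjusted p = 0.760). Its groups overlapped, and 19.5% to 28.3% of the reads summed over BNIP3 and its copies were at the copies, so its level is uncertain. KDM3A, a histone H3 lysine demethylase that needs oxygen to work, stood at 78.6, 78.3 and 71.7 CPM against 54.1, 60.9 and 50 CPM, without overlap, and fell by 0.47 (SE 0.079; edgeR adjusted p = 0.00397).

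The oxygen sensors and the mitochondrial gatekeeper were not called. EGLN1, the main prolyl hydroxylase that marks HIF, had a log2 fold change of -0.05 (SE 0.053; edgeR adjusted p = 0.526). EGLN3, a hydroxylase that HIF itself induces, stood at 6.05, 5.53 and 6.12 CPM against 4.89, 5.18 and 4.65 CPM, without overlap but with an edgeR adjusted p of 0.166. PDK1, which closes pyruvate dehydrogenase to pyruvate, stood at 34.4, 33.8 and 27.7 CPM against 26.3, 27.0 and 27.0 CPM, again apart, with an edgeR adjusted p of 0.0761 and of less than the threshold with library size as the only scaling and without control replicate 3. CA12 and ANKRD37 had log2 fold changes of -0.06 and 0.26 at 3.16 ± 0.738 and 1.87 ± 0.161 CPM in the controls (SD, n = 3), and neither was called. The 6 calls in this group held under every alternative run.

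**Figure D3:**
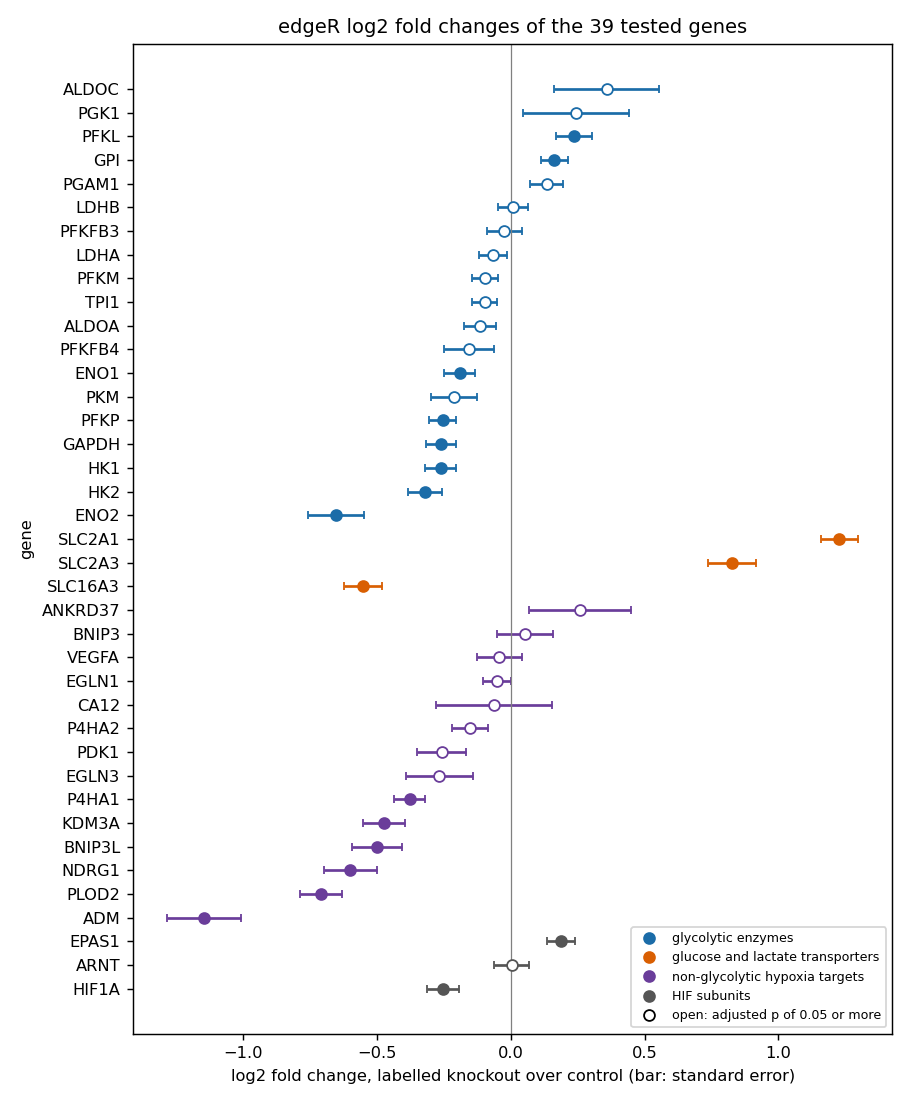
edgeR log2 fold change of the 39 tested genes, libraries labelled knockout over control, with its standard error; filled points passed an adjusted p under 0.05 and colours give the gene group. SLC2A1 at 1.23 and ADM at -1.14 stand at the ends, and most enzymes lie within 0.3 of 0.

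Set side by side, 8 of 19 glycolytic enzymes (42.1%) and 6 of 14 other hypoxia targets (42.9%) were called. The share over all genes tested was 21.1%. Of the called genes, 2 of 8 enzymes rose, against 0 of 6 targets. The 2 are GPI and PFKL, whose calls were lost in 11 and 9 of 15 alternatives. With DESeq2, upper-quartile scaling, library size only or an adjusted p under 0.01, 0 enzymes were higher. The 6 target calls held under every alternative run. The median log2 fold change was -0.10 for the enzymes and -0.26 for the targets, and 13 of 19 and 12 of 14 values were below 0. Over all genes tested 7963 of 16369 values were below 0. The median size of the log2 fold change, whatever its sign, was 0.19 for all 19 enzymes and 0.26 for all 14 targets tested. Over all genes tested it was 0.18, near that of the enzymes. Summed over the enzymes the level was 6440 to 6753 CPM in the controls and 5726 to 6227 CPM in the libraries labelled knockout. Over the targets it was 982 to 1091 CPM and 798 to 889 CPM. Giving each gene the same weight, as the mean deviation of log2(CPM + 0.5) from the gene's mean, the enzymes lay at 0.05, 0.02 and 0.06 in the controls and at -0.04, -0.09 and 0.01 in the libraries labelled knockout. By that measure replicate 3 labelled knockout came next to control replicate 2. The value of control replicate 2 is lowered by PGK1, which stood at 167 CPM there against 309 and 315 CPM in the other controls. No mean without PGK1 was taken, so how near the enzyme groups lie apart from that gene is not shown. The targets lay at 0.19, 0.11 and 0.15 against -0.19, -0.11 and -0.15, well apart. No test of the difference between these groups of genes was run, because their genes were chosen with results known.

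**Figure D4:**
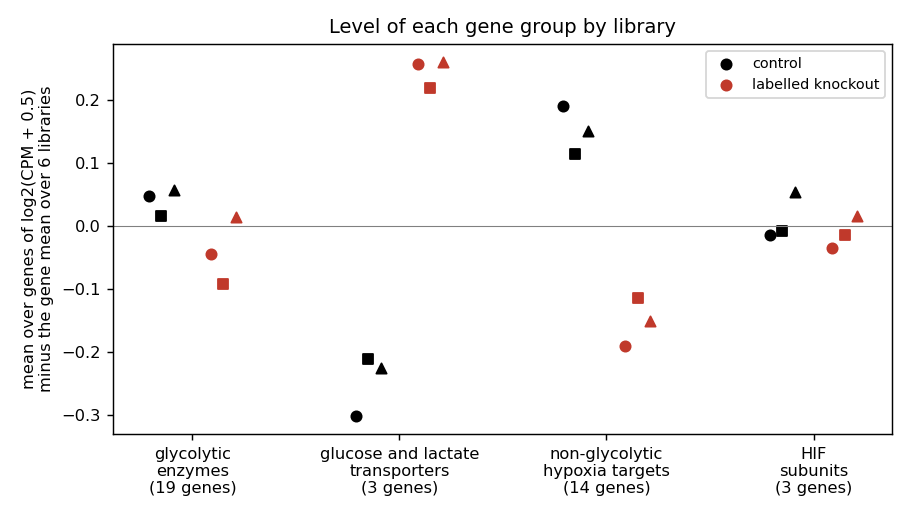
Mean over genes of log2(CPM + 0.5) minus each gene's mean over the 6 libraries, by gene group and library, with marker shapes for replicates 1 to 3. The controls lie above the libraries labelled knockout for the non-glycolytic targets and below them for the transporters. The glycolytic enzymes nearly touch at control replicate 2, whose mean is lowered by PGK1, and the HIF subunits overlap.

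Isoforms were compared by the share that 1 gene takes of the summed RPKM of the members of its family, which does not depend on library scaling. With 3 libraries in each group the smallest p an exact two-sided permutation test can give is 0.1, so none of the 11 families could pass; adjusted p-values are over these 11. BNIP3 took 13.0%, 13.9% and 11.1% of the summed level of BNIP3 and BNIP3L in the controls and 17.1%, 18.0% and 17.3% in the libraries labelled knockout. BNIP3L in control replicate 2 stood at 80.1% of the other controls, and reads at copies leave the BNIP3 level uncertain. The difference was 4.80 points, and 4.01 to 5.41 points without 1 library at a time. The P4HA1 share of P4HA1 and P4HA2 went from 73.6% ± 0.222 to 70.4% ± 1.87 (SD, n = 3). ENO1 made up 96.1% ± 0.439 and 97.1% ± 0.332 of the summed level of ENO1 and ENO2 (SD, n = 3), and SLC2A1 94.1% ± 0.369 and 95.5% ± 0.466 of that of SLC2A1 and SLC2A3. The LDHA share of LDHA and LDHB was 23.3% ± 0.634 and 22.4% ± 0.257 (SD, n = 3). In these 5 families the groups did not overlap (exact permutation p = 0.1 and adjusted p = 0.22 for each). The HK1 share of HK1 and HK2 was 36.0% ± 1.1 and 37.0% ± 1.32 (SD, n = 3; exact permutation p = 0.5), with overlapping groups, while both genes fell.

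The same pathways hold genes outside the 40. Of 31 tested genes of glycolysis, pyruvate entry and transport (40 listed), 3 rose, 5 fell and 23 were not called, with a median log2 fold change of 0.05. The called share of 25.8% is near the 21.1% of all genes tested. SLC2A8, an intracellular sugar transporter, stood at 9.63, 7.70 and 11 CPM against 16.4, 16.2 and 14.4 CPM and rose by 0.73 (SE 0.13; edgeR adjusted p = 0.00624). It lies on chromosome 9, where control replicate 2 was low, and rose by 0.60 without that library (edgeR adjusted p = 0.000592). SLC2A12 fell by 0.84 (edgeR adjusted p = 0.0195) and the monocarboxylate transporter SLC16A7 by 0.54 (edgeR adjusted p = 0.0177). MPC1, a subunit of the mitochondrial pyruvate carrier, fell by 0.48 (edgeR adjusted p = 0.0183). SLC2A12 and MPC1 lie on chromosome 6, where control replicate 2 was also low. Without it their log2 fold changes were -0.98 and -0.56 (edgeR adjusted p = 0.0024 and 0.000652). The calls of SLC2A12, SLC16A7 and MPC1 were each lost in some fits without 1 library (highest adjusted p = 0.0758, 0.0729 and 0.0769). BSG, the chaperone that takes lactate transporters to the membrane, was chosen after its values were seen: it stood at 367, 386 and 417 CPM against 496, 499.6 and 509 CPM and rose by 0.36 (edgeR adjusted p = 0.00273). SLC16A1, the other main lactate transporter, had a log2 fold change of 0.12 (edgeR adjusted p = 0.0881).

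Of 36 tested further HIF targets (39 listed), 2 rose, 9 fell and 25 were not called, with a median log2 fold change of -0.05. The called share was 30.6%, beside 21.1% of all genes tested. BHLHE41, a transcriptional repressor of the circadian clock, stood at 6.79, 5.59 and 5.23 CPM in the controls and 1.63, 1.28 and 1.37 CPM in the libraries labelled knockout. It fell by 2.03 (SE 0.19; edgeR adjusted p = 0.000182). Its log2 fold change was larger in size than that of ADM, and its groups lay far apart. ANGPTL4, which inhibits lipoprotein lipase, fell by 0.67 (SE 0.13; edgeR adjusted p = 0.00917). HMOX1, the haem-degrading oxygenase, rose by 0.53 (SE 0.16; edgeR adjusted p = 0.048) with overlapping groups, and its call was lost with the replicate block and in 3 fits without 1 library (adjusted p up to 0.179).

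Of 15 tested genes of oxygen sensing and HIF turnover (16 listed), 1 rose and 2 fell, with a median log2 fold change of 0.01. The called share of 20.0% is near the 21.1% of all genes tested. CREBBP, a HIF coactivator, stood at 129.7, 122 and 135 CPM against 168, 168 and 178 CPM and rose by 0.41 (SE 0.055; edgeR adjusted p = 0.00137). ARNTL, an ARNT relative of the circadian clock, fell by 0.31 (edgeR adjusted p = 0.00856), and CUL2, the scaffold of the VHL ligase, fell by 0.25 (edgeR adjusted p = 0.0138). The CUL2 call was lost on omitting replicate 1 of either group (highest edgeR adjusted p = 0.0589).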

How the data were processed

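RNA of 3 control and 3 ZFP90 knockout labelled HCT116 samples was made into libraries from 1 µg with a TruSeq kit, per the labels' protocols. Each library has a deposited table of unnormalised counts by gene symbol. TopHat2 2.0.11, HTSeq, hg19 and GRCh37 are named by the authors, per the submitters' processing notes; whether HTSeq used strand, and its version, is not given in the sources used here, so reads of overlapping and antisense genes cannot be told apart. The largest overlaps with another gene covered 42.3% of ALDOA exon bases, 38.5% of CA9, 35.2% of ANKRD37 and 33.4% of LDHB; among called genes they were 14.2% of GAPDH, 7.7% of BNIP3L, 5.4% of SLC16A3 and 5.1% of GPI (GENCODE 29). The 5 summary lines held 31.7% to 32.4% of listed reads and were left out.

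The test was that of edgeR 4.0.16 in R 4.3.3 (quasi-likelihood test, TMM scaling, filterByExpr with a minimum count of 10 and a total of 15), with p-values adjusted over all 16369 genes tested by the method of Benjamini and Hochberg. CPM and RPKM were computed from the counts; exon lengths came from GENCODE 29 on GRCh38, which was not the build of the counts. Of all list genes 4 were matched by an older symbol. Replicates differed beyond sampling noise. The chi-square per degree of freedom was 19.7 and 19.6 for control replicate 2 against controls 1 and 3, and 2.19 to 3.94 for the other pairs. The scripts were tested on simulated data. Alternatives were 3 other scalings, 2 other filters, DESeq2 1.42.0, limma-voom (limma 3.58.1), a replicate block, an adjusted p under 0.01, raw counts in place of RPKM for isoform shares, and leaving out each library.

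The members, the further lists and the tests were chosen with earlier results of these data known. All 40 members are named, with values per library for those called and for the HIF subunits; of the 3 further pathway lists, the called genes with the 4 largest changes are named, except an item not reported here. Promoters are RefSeq's (GRCh38.p14); those of SLC2A3, VEGFA, NDRG1 and BNIP3L were not used here. The stretches of ADM, ENO2, KDM3A and P4HA1 lie in exons of GENCODE transcripts that start earlier.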

Additional observations from a re-analysis of the deposited data

How the results depend on the processing

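Of the 19 called genes among the 40, 11 (HK2, ENO2, SLC2A1, SLC2A3, SLC16A3, ADM, NDRG1, BNIP3L, KDM3A, P4HA1 and PLOD2) kept their call and direction under every alternative run, and GAPDH under all but an adjusted p under 0.01. Their called number was 13, 19 and 15 without control replicates 1, 2 and 3, and 12, 14 and 15 without replicates 1, 2 and 3 labelled knockout. Scaling by library size only moved the median of all genes to -0.06 (log2) and the share of calls that were higher from 46.1% to 29.6%. All genes higher then numbered 986, the members higher 2, the enzymes higher 0, and the medians of the enzymes and of the other targets were -0.17 and -0.33. With upper-quartile scaling, and with DESeq2, 2 members and 0 enzymes were higher; with RLE scaling 1 enzyme was. At an adjusted p under 0.01, 618 genes were higher and 869 lower, 2 members and 0 enzymes higher and 3 enzymes lower, with 1 further glycolysis gene, 5 further HIF targets and 1 oxygen-sensing gene lower and 0 HIF targets higher. Without a filter 5 further glycolysis genes and 4 further HIF targets were higher, and with DESeq2 3 further glycolysis genes were lower. Limma-voom and the replicate block gave 2 oxygen-sensing genes higher. Directions that turned were of values near 0: LDHB -0.0137 (upper quartile) and -0.0581 (library size only), BNIP3 -0.012 (library size only), ARNT -0.0191, -0.0638 and -0.0004 (those scalings, and at least 1 CPM in 3 libraries), and the PFKM share, which was 0.54 points higher by RPKM and -0.33 points by raw counts. Without 1 library at a time, 756 to 2261 genes were higher and 1025 to 2361 lower, the extremes being without replicate 1 labelled knockout and without control replicate 2.

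Over the same omissions 2 to 5 members were higher and 10 to 15 lower, 0 to 2 enzymes higher and 3 to 7 lower, and 0 other targets higher and 6 to 7 lower. Further glycolysis genes numbered 2 to 4 and 1 to 5, further HIF targets 0 to 3 and 5 to 13, and oxygen-sensing genes 1 to 2 and 1 to 3. Enzyme medians ran from -0.13 to -0.08 and target medians from -0.30 to -0.23. Log2 fold changes ran from -0.0865 to 0.0087 for PFKFB3, -0.0181 to 0.053 for LDHB, -0.214 to 0.117 for CA12, -0.134 to 0.0222 for VEGFA, -0.027 to 0.123 for BNIP3 and -0.0358 to 0.0554 for ARNT. The cause of these differences was not tested. Replicate numbers were not taken to pair the samples in the main fit. Same-numbered libraries correlated at 0.066, 0.167 and 0.122 in their deviations, each best with its own number. That check gives no ground for leaving pairing out, and the fit with the replicate block follows. With the replicate block 1623 genes were higher and 1840 lower, with 4 and 14 members. Depth limits CA9, at 1 read or fewer in every library.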

Other observations

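GAPDH is often the reference in quantitative PCR, so 12 genes in common use as references were looked up after the values were seen. In the same edgeR fit 3 of the 12 were called, beside 21.1% of all genes tested; without control replicate 2, RPLP0 and YWHAZ were called too (edgeR adjusted p = 0.00970 and 0.00187), which makes 5. GAPDH fell by 0.26 and ACTB, which encodes cytoplasmic actin, by 0.24 (edgeR adjusted p = 0.0462), and GUSB, a lysosomal glucuronidase, rose by 0.58 (edgeR adjusted p = 0.000997). The log2 fold changes of TBP, PPIA, RPLP0, SDHA, B2M and YWHAZ were 0.25, 0.15, 0.15, 0.08, -0.03 and -0.15, and none of these was called with all libraries. TBP, PPIA and YWHAZ lie on chromosomes 6, 7 and 8, where control replicate 2 was low. Without it they stood at 0.18, 0.06 and -0.26. ACTB and GUSB, on chromosome 7, stood at -0.28 and 0.55 without it. Relative to GAPDH, 27 of the other 38 tested hypoxia and glycolysis genes had a higher value in the libraries labelled knockout than in the controls, where 12 had a log2 fold change above 0 with TMM scaling. HPRT1, on the X chromosome like PGK1, had a log2 fold change of 0.43, and of 0.19 without control replicate 2 (edgeR adjusted p = 0.151 and 0.0704).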
